A study of Rattus norvegicus with 7 samples.

Results

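The ATP-binding cassette (ABC) family was described in RNA from epithelial crypts of the rat colon, the glandular pits where the epithelium is renewed from stem cells. Members were all genes of the deposited gene table whose symbol begins with Abc, followed by a subfamily letter from a to g, a number and at most 1 further letter. This gave 41 genes of 16468. The distal group was 1 RNA library from crypts of the distal colon, and the proximal group was 1 RNA library from crypts of the proximal colon. Both came from Sprague Dawley rats, an outbred laboratory strain, 14 weeks old, with material of 7 rats pooled in each library. The labels give no treatment and no sex. By its title, the study set out to compare histone modifications and proto-oncogene activity between sites of the colon. The other 5 libraries, of immunoprecipitated chromatin, were not analysed here.

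ABC proteins couple ATP hydrolysis in nucleotide-binding domains to the movement of a substrate through a membrane domain. In the gut epithelium the best known are the apical efflux pumps P-glycoprotein and BCRP, which return drugs and plant toxins to the lumen, and the sterol pumps, which export cholesterol and plant sterols. Other subfamilies serve mitochondria, peroxisomes and lysosomes, and the members of subfamilies E and F have no membrane domain and act in translation.

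Each region had a single library, which leaves no replicate spread, so no test of the regions was made and each difference compares these 2 libraries. Levels are in FPKM, that is, sequenced fragments per length of transcript and size of library, with sums over all rows of 463561 in distal crypts and 413026 in proximal crypts. The depth in reads is unknown. For short genes 3 reads stood near 0.339 FPKM in distal crypts and 0.426 FPKM in proximal crypts, and folds are left out where either value was under 0.426 FPKM. Ratios are log2((distal FPKM + 1)/(proximal FPKM + 1)), a scale that shrinks the differences of weakly expressed genes, and genes with at least 1 FPKM in 1 library are called measured. Folds beside FPKM values are plain ratios. Epithelial markers were high in both libraries: 8 of 8, among them Epcam and the keratin gene Krt8, lay between 67.5 and 3825 FPKM in distal crypts and between 39.1 and 2629 FPKM in proximal crypts, all less than 2-fold apart. Of the 8, 7 were higher in the distal library, and their median log2 ratio was 0.33, against 0.09 for all measured genes.

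The promoter stretches of Abcg2 and Abcb1a are shown because these genes were the measured members furthest apart between the regions, and the stretch between Abcg5 and Abcg8 because this sterol pump pair is transcribed outward from it. The sequences are from RefSeq, build GRCr8, whereas loci of the deposited table are on rn4. Those of Abcg2 (chr4:89075224-89075473, plus strand) and Abcb1a (chr4:26397649-26397898, minus strand) are the 250 bases before the annotated start, read 5′ to 3′ along the gene. The third is the 205 bases between the starts of Abcg8 and Abcg5 (chr6:15717731-15717935, plus strand), the same number of bases as separates their loci in the table. Capitals mark matches on either strand to the GC box, spelled GGGCGG, to the motif CCAAT, known as a promoter box of its own, and to the TATA box, spelled TATAAA. These motifs do not overlap in the stretches shown.
Abcg2 promoter: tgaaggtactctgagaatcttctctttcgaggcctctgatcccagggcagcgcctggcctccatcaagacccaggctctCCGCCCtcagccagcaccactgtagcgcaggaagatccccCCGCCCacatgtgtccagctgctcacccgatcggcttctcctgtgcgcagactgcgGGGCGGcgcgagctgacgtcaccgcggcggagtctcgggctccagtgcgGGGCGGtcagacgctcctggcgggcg
Abcb1a promoter: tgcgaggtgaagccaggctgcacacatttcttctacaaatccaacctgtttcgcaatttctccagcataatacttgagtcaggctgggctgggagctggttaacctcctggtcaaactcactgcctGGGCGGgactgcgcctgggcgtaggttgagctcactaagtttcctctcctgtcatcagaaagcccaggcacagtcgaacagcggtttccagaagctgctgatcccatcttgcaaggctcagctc
Abcg5 and Abcg8 shared stretch: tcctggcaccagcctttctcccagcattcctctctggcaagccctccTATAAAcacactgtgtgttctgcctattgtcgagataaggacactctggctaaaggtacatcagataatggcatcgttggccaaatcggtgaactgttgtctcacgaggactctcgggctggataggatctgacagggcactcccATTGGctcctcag

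The Abcg2 stretch held 4 GC boxes, 2 on each strand, and was 67.2% G or C. The Abcb1a stretch held 1 GC box and was 54.0% G or C. No TATA or CCAAT box was matched in these 2 windows. The stretch of Abcg5 and Abcg8 held 1 TATA box and 1 CCAAT box and no GC box, at 52.2% G or C. A GC box was matched in 32.4% of 27457 rat promoters of 250 bases, a CCAAT box in 34.3% and a TATA box in 13.1%. Of the 41 members, 32 had a promoter in this set, and 21 of the 32 held a GC box, 12 a CCAAT box and 5 a TATA box. The 27457 promoters were not limited to genes of the deposited table, so their shares are not a matched background for the members. The xenobiotic response core (GCGTG), bound by the aryl hydrocarbon receptor, was searched on both strands. So was TGANNNNGC, a loose form of the antioxidant response core of Nrf2. Neither was matched in the 250 bases upstream of Abcg2 or Abcb1a. The stretch of Abcg5 and Abcg8 held 1 match to the antioxidant form and no xenobiotic core. The xenobiotic core was matched in 15 of the 32 member promoters and 27.2% of all promoters. The antioxidant form was matched in 12 of the 32 and 34.6% of all. An AP-1 site (TGANTCA) was matched once upstream of Abcb1a, in 1 of the 32 member promoters and in 6.36% of all promoters.

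Most of the measured members had similar RNA levels in both regions. The 2 measured members at least 2-fold apart were drug efflux pumps, Abcg2 and Abcb1a, both lower in the distal library. Of the 41 members 25 were measured. None of them, 0 of 25, was higher by 2-fold or more in distal crypts, against 3.71% of 9847 measured genes. In the opposite direction 2 of 25 were lower by 2-fold or more in distal crypts, against 3.91% of measured genes. In either direction 7.62% of measured genes were at least 2-fold apart, so the family's 2 of 25 was near the background. Less than 1.5-fold apart were 21 of the 25, against 82.7% of measured genes. The median log2 ratio of the members was -0.02, against 0.09 for all measured genes, and 11 of the 25 had the higher FPKM in the distal library, against 61.4% of measured genes. In these bulk samples, fewer cells of a type and less RNA per cell cannot be told apart.

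**Figure D1:**
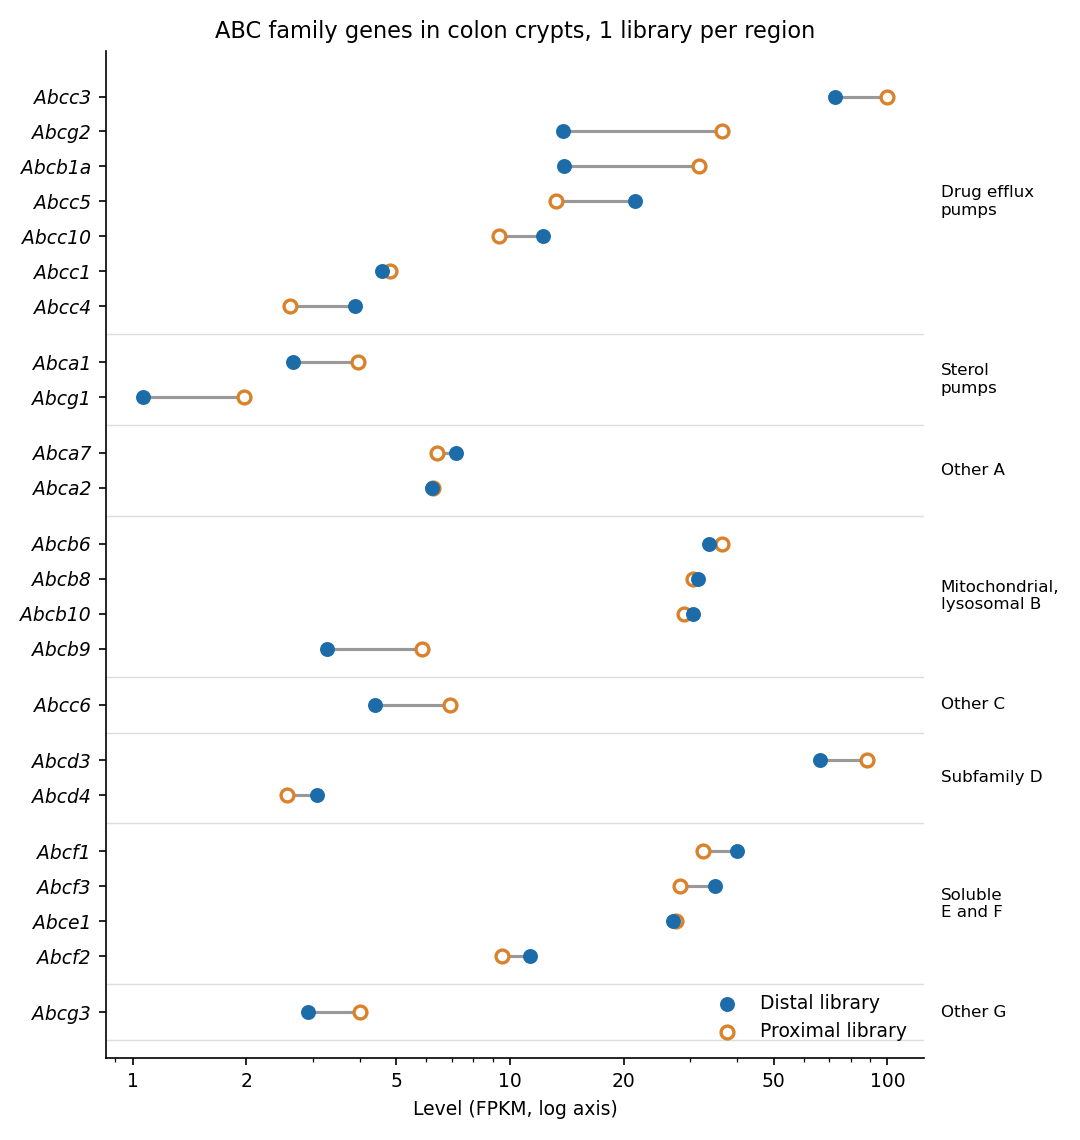
Level of 23 of the 25 measured ABC genes (FPKM, log axis) in the distal library (filled blue) and the proximal library (open orange), 1 library each and so without error bars, grouped by role. Abcg2 and Abcb1a have the widest gaps, with the distal value on the left, while the mitochondrial genes and Abce1 nearly coincide. The genes of subfamily F lie slightly apart, with the distal value on the right.

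**Figure D2:**
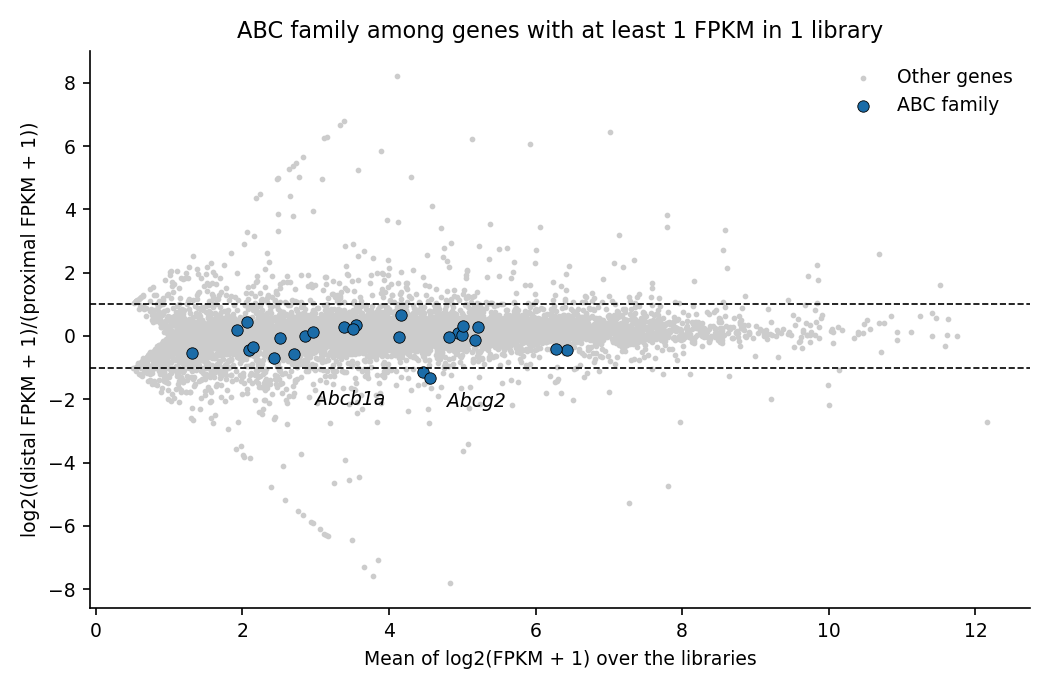
Log2 ratio of distal over proximal, from log2(FPKM + 1), against the mean of both libraries for the 9847 measured genes (grey) and the 25 measured ABC genes (blue), with dashed lines at 2-fold. Abcg2 and Abcb1a lie below the lower line, and no member lies above the upper one.

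Abcg2 encodes BCRP, an apical pump for drugs, dietary carcinogens, urate and porphyrins. It lies on chromosome 4 at 87502584 to 87560017 of rn4. Its level was 13.85 FPKM in distal crypts and 36.5 FPKM in proximal crypts, 2.63-fold lower in distal crypts. The authors' deposited table gave Abcg2 a log2 fold change of -1.40 with a standard error of 0.34, as implied by its test statistic, and a q of 0.00147. This was the only member the authors' deposited table called, of 28 it tested, against 5.43% of all tested genes. An unadjusted p under 0.05 was listed for 4 of the 28, against 12.3% of tested genes. The log2 ratio of Abcg2 lay between -1.49 and -1.14 over the pseudocounts and rescalings tried. In distal crypts 46.4% of measured genes stood lower than Abcg2, and in proximal crypts 76.7%.

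Abcb1a encodes the P-glycoprotein of the gut and blood-brain barrier, which expels a wide range of hydrophobic compounds. Its level was 13.9 FPKM in distal crypts and 31.7 FPKM in proximal crypts, 2.28-fold lower in distal crypts. The authors' deposited table gave Abcb1a a log2 fold change of -1.19 with an implied standard error of 0.42 and did not call it, at a q of 0.0706. Abcg2 and Abcb1a thus had nearly equal levels in distal crypts, each lower than in proximal crypts. With a pseudocount of 5 FPKM the log2 ratio of Abcb1a was -0.96, under 2-fold.

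The table gives Abcb1a, Abcb1b and Abcb4 1 merged locus with 8 other genes, on chromosome 4 at 20745424 to 22118097, so their values can hold reads of neighbours. Abcb1b, the paralogue that in rodents is the second P-glycoprotein gene, was listed at 0.322 FPKM in distal crypts and 0.970 FPKM in proximal crypts. Because these paralogues are closely alike in sequence, how reads were divided between them is uncertain. The authors' deposited table implied a standard error of 2.90 for the log2 fold change of Abcb1b. Abcb4, the phospholipid exporter of the bile canaliculus, was listed at 0.109 FPKM in distal crypts and 0.129 FPKM in proximal crypts. Of the 8 other genes at this locus, Slc25a40 stood at 33.5 FPKM in distal crypts and 44.3 FPKM in proximal crypts, Crot at 15.0 FPKM distally and 13.7 FPKM proximally, and Rundc3b at 0.534 FPKM distally and 1.68 FPKM proximally. The authors' deposited table called none of the 11 genes of the locus.

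The remaining drug efflux pumps were multidrug resistance proteins of subfamily C, and they went both ways by less than 2-fold. Abcc3, a basolateral exporter of glucuronide conjugates and bile salts, was the family member with the highest level in both libraries. It stood at 72.6 FPKM in distal crypts and 99.8 FPKM in proximal crypts, on chromosome 10 at 82986552 to 83030799. The authors' deposited table gave Abcc3 a log2 fold change of -0.46, with a 95% interval from -1.14 to 0.22 by the implied standard error. Abcc5, an exporter of cyclic nucleotides and nucleotide analogues on chromosome 11 at 82714334 to 82809354, had the highest log2 ratio of the measured members, 0.65. It stood at 21.4 FPKM in distal crypts and 13.3 FPKM in proximal crypts, 1.61-fold higher in distal crypts. The authors' deposited table gave Abcc5 a log2 fold change of 0.69 (interval 0.11 to 1.27) and a q of 0.215, so it was not called.

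Abcc10, a broad-range exporter, stood at 12.2 FPKM in distal crypts and 9.34 FPKM in proximal crypts, and shares its locus with Dlk2, at 0.202 FPKM distally and 0.319 FPKM proximally. Abcc1, an exporter of glutathione conjugates and leukotriene C4, stood at 4.58 FPKM in distal crypts and 4.80 FPKM in proximal crypts. Abcc4, an exporter of cyclic nucleotides and prostaglandins, stood at 3.87 FPKM in distal crypts and 2.61 FPKM in proximal crypts. Of these 3, only Abcc1 was lower in the distal library, and all were within 1.5-fold. Abcc2, the apical exporter of conjugates, was listed at 0 FPKM in both libraries. Its locus in the table is on unplaced sequence of chromosome 1, so this value is not given as absence.

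The sum over the 9 drug efflux pumps was 143 FPKM in distal crypts and 199 FPKM in proximal crypts. Abcg2 and Abcb1a together gave 27.8 FPKM, or 19.4% of that sum, in the distal library and 68.2 FPKM, or 34.3%, in the proximal library. The 5 measured pumps of subfamily C summed to 115 FPKM in distal crypts and 130 FPKM in proximal crypts. Abcc3 alone held 50.9% of the drug pump sum in distal crypts and 50.2% in proximal crypts, and Abcc5 held 15.0% in distal crypts and 6.66% in proximal crypts. The share of Abcc3 was thus alike in the regions, that of Abcg2 and Abcb1a was smaller in distal crypts, and that of Abcc5 was larger there. The median log2 ratio of the 7 measured pumps was -0.05.

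**Figure D3:**
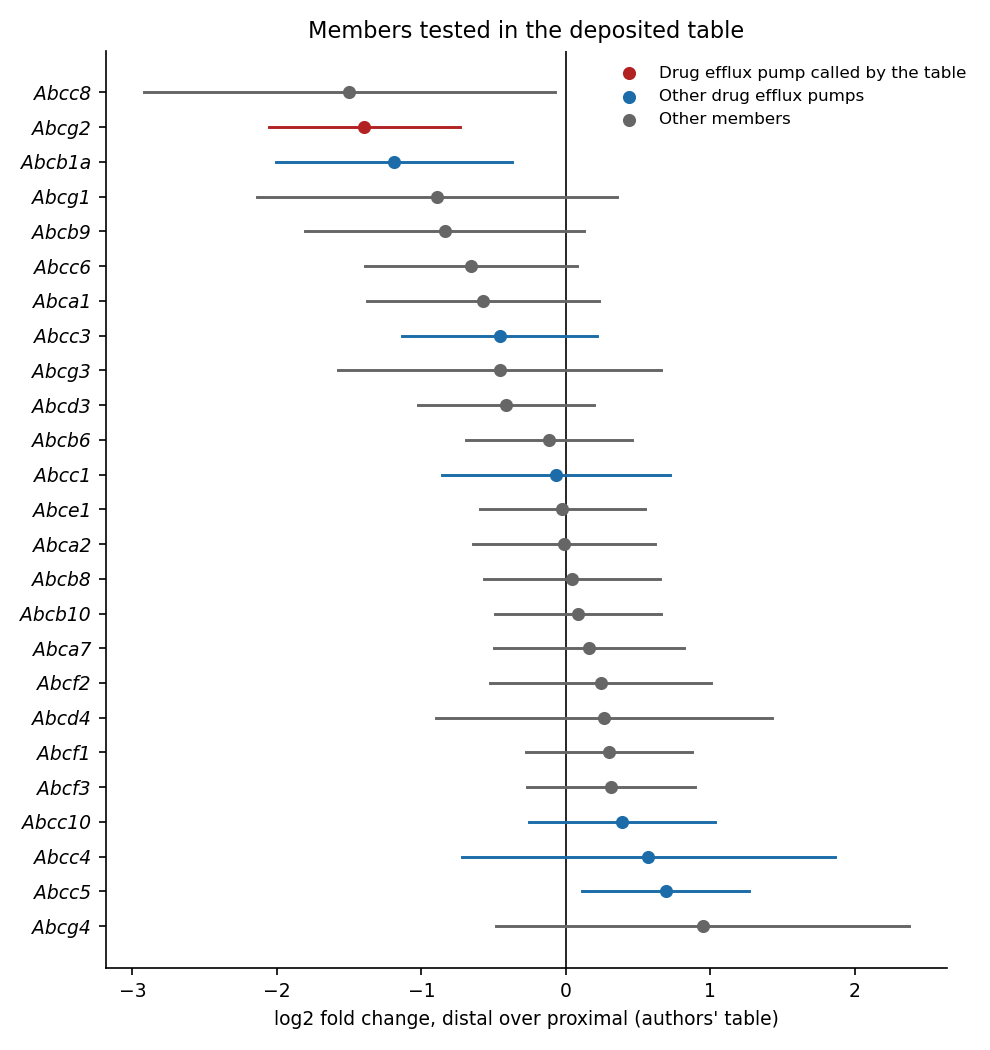
Log2 fold changes of distal over proximal in the authors' deposited table for 25 of the 28 members it tested, with 95% intervals from the implied standard error, which does not measure variation between rats. Abcb1b, with an implied standard error of 2.90, and 2 further members are not drawn. The intervals of Abcc8, Abcg2 and Abcb1a lie below 0 and that of Abcc5 above it, and Abcg2 was called.

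Sterol pumps were low in both regions. Abca1, which loads cholesterol and phospholipid onto apolipoprotein A-I at the basolateral side, stood at 2.66 FPKM in distal crypts and 3.96 FPKM in proximal crypts. Abcg1, which passes cholesterol to high-density lipoprotein, stood at 1.06 FPKM in distal crypts and 1.98 FPKM in proximal crypts. Both were lower in the distal library, 1.49-fold for Abca1 and 1.86-fold for Abcg1, less than 2-fold in each case. The intervals of the authors' deposited table spanned 0, from -1.38 to 0.23 for Abca1 and from -2.14 to 0.35 for Abcg1. Abcg4, a brain relative of Abcg1, was listed at 0.855 FPKM in distal crypts and 0.443 FPKM in proximal crypts, under the minimum. Abcg5 and Abcg8, which form 1 pump that returns plant sterols to the lumen in the small intestine and bile, were listed at 0 FPKM in both libraries. The median log2 ratio of Abca1 and Abcg1 was -0.48.

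Macrophages are known for high Abca1 and Abcg1, and macrophage markers were present at low levels. Of 8 such markers in the table, 4 were measured, and they summed over all 8 to 11.4 FPKM in distal crypts and 22.1 FPKM in proximal crypts. Lyz2 alone stood at 2.50 FPKM in distal crypts and 11.1 FPKM in proximal crypts, and was called in the authors' deposited table at a q of 0.0118. Lyz2 shares its locus with another gene, so its value can hold reads of that neighbour. The other 7 macrophage markers summed to 8.92 FPKM in distal crypts and 10.9 FPKM in proximal crypts. C1qa stood at 3.57 FPKM in distal crypts and 3.72 FPKM in proximal crypts. Csf1r stood at 0.516 FPKM in distal crypts and 0.939 FPKM in proximal crypts, and Cd163 and Emr1 were listed at 0 in both. Lymphocyte markers, 8 in the table, summed to 10.5 FPKM in distal crypts and 39.9 FPKM in proximal crypts, and 4 of the 7 measured ones were lower by 2-fold or more in distal crypts. The leukocyte marker Ptprc stood at 1.44 FPKM in distal crypts and 8.97 FPKM in proximal crypts. P-glycoprotein and BCRP also occur on blood cells. The gap of Abcg2 was 22.6 FPKM and that of Abcb1a 17.8 FPKM, and the part of these cells in either was not tested.

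The remaining measured members of subfamily A differed little. Abca2, a lysosomal lipid transporter, stood at 6.21 FPKM in distal crypts and 6.26 FPKM in proximal crypts. Abca7, a relative of Abca1 linked to phospholipid handling and phagocytosis, stood at 7.19 FPKM in distal crypts and 6.43 FPKM in proximal crypts. The ratio of Abca7 turned slightly negative, to -0.0084, once both libraries had equal upper quartiles. Abca4, the retinal flippase of photoreceptors, was under the minimum at 0.646 FPKM in distal crypts and 0.239 FPKM in proximal crypts, and Abca17 at 0.300 FPKM distally and 0.391 FPKM proximally. Abca5 and Abca13 were under 0.1 FPKM in both libraries, and Abca15 was listed at 0 in both.

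Mitochondrial members of subfamily B were well expressed and nearly equal in the regions. Abcb6, which is linked to porphyrin transport, stood at 33.6 FPKM in distal crypts and 36.5 FPKM in proximal crypts. Abcb8, linked to mitochondrial iron export, stood at 31.5 FPKM in distal crypts and 30.5 FPKM in proximal crypts. Abcb10, needed for heme synthesis, stood at 30.6 FPKM in distal crypts and 28.9 FPKM in proximal crypts. Their 3 log2 ratios ran from -0.11 to 0.08, and the positive ones of Abcb8 and Abcb10 turned negative under both rescalings. Abcb9, a lysosomal peptide transporter, was the exception in subfamily B outside the drug pumps, at 3.27 FPKM in distal crypts and 5.84 FPKM in proximal crypts, 1.79-fold lower in distal crypts. The authors' deposited table gave Abcb9 a log2 fold change of -0.84 with an implied standard error of 0.49 and did not call it. Abcb11, the bile salt export pump of liver, was listed at 0 in both libraries, on unplaced sequence of chromosome 3.

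Of the other members of subfamily C, Abcc6, a liver and kidney protein needed for ATP release, stood at 4.39 FPKM in distal crypts and 6.92 FPKM in proximal crypts, 1.58-fold lower in distal crypts. Its interval in the authors' deposited table ran from -1.39 to 0.08. Abcc8, the sulfonylurea receptor of insulin-secreting cells, was under the minimum at 0.294 FPKM in distal crypts and 0.830 FPKM in proximal crypts, and the authors' deposited table gave it a q of 0.341. Abcc9, the sulfonylurea receptor of muscle, was listed at 0.0153 FPKM in distal crypts and 0.0184 FPKM in proximal crypts, on unplaced sequence of chromosome 4. The pore subunits that pair with these receptors were as low, Kcnj11 at 0.293 FPKM in distal crypts and 0.443 FPKM in proximal crypts and Kcnj8 at 0 in both. Abcc12 was listed at 0 in both libraries.

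Abcd3, the peroxisomal importer of branched-chain and bile acid precursors, was the second most abundant member. It stood at 66.3 FPKM in distal crypts and 88.4 FPKM in proximal crypts, on chromosome 2 at 218396071 to 218432168, and the authors' deposited table gave Abcd3 an interval from -1.02 to 0.19. Abcd4, which serves the export of cobalamin from lysosomes, stood at 3.07 FPKM in distal crypts and 2.56 FPKM in proximal crypts. Both were within 1.5-fold, Abcd3 lower and Abcd4 higher in distal crypts. Abcd2 was listed at 0.0781 FPKM in distal crypts and 0.0315 FPKM in proximal crypts.

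The soluble members were higher in the distal library by small steps, except Abce1. Abce1, which recycles ribosomes, stood at 27.0 FPKM in distal crypts and 27.5 FPKM in proximal crypts. Abcf1, a translation initiation factor, stood at 39.9 FPKM in distal crypts and 32.5 FPKM in proximal crypts, and its locus holds the microRNA precursor Mir877, listed at 0 in both. Abcf3 stood at 35.0 FPKM in distal crypts and 28.1 FPKM in proximal crypts, and Abcf2 at 11.3 FPKM distally and 9.53 FPKM proximally. The median log2 ratio of the 3 members of subfamily F was 0.29, or 0.12 with equal upper quartiles, and the authors' deposited table called none of them. Abcg3, a rodent gene with several close copies in the rat, stood at 2.92 FPKM in distal crypts and 4.01 FPKM in proximal crypts. Reads shared with those copies make its level uncertain.

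By subfamily, the median log2 ratio was -0.01 over 3 measured members of A, -0.08 over 6 of B, 0.15 over 6 of C, 0.19 over 3 of D and -0.53 over 3 of G. All 3 measured members of G were lower in the distal library, namely Abcg2, Abcg1 and Abcg3. The median of G was -0.61 with equal upper quartiles and that of C was 0.0017. Under the minimum in both libraries were 16 members, 6 of them listed at 0 in both, and the other 10 reached at most 0.855 FPKM in distal crypts and 0.970 FPKM in proximal crypts.

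Cftr and the genes Tap1 and Tap2, of the same superfamily under other names, were less than 2-fold apart. Cftr, the ABC protein that works as a chloride channel, stood at 24.0 FPKM in distal crypts and 38.2 FPKM in proximal crypts, 1.59-fold lower in distal crypts. The peptide transporter genes of antigen presentation stood at 12.3 FPKM in distal crypts and 11.7 FPKM in proximal crypts for Tap1, and at 25.3 FPKM distally and 24.1 FPKM proximally for Tap2. Another 4 genes, Abcg3l1 to Abcg3l4, are named as relatives of Abcg3 and fall outside the symbol rule, and all were lower in the distal library. Abcg3l2 was lower by 2-fold or more, at 4.88 FPKM in distal crypts and 13.2 FPKM in proximal crypts. Its locus in the table is also that of Abcg3l4, at 35.7 FPKM in distal crypts and 42.0 FPKM in proximal crypts, and the authors' deposited table implied a standard error of 3.06 for the log2 fold change of Abcg3l2. That table called none of the 4.

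Nuclear receptors and other factors known to regulate ABC genes were more often lower than higher in distal crypts. Of 18 measured genes 11 were lower in distal crypts and 7 higher, whereas 61.4% of all measured genes were higher there. In this list 1 of 18 was lower by 2-fold or more in distal crypts, near the 3.91% of all measured genes. None was higher by that much, against 3.71% of measured genes, and the median log2 ratio was -0.28. Ppara, the fatty acid receptor, stood at 4.33 FPKM in distal crypts and 13.5 FPKM in proximal crypts, 3.12-fold lower in distal crypts, and the authors' deposited table called Ppara at a q of 0.0131. Pparg stood at 32.4 FPKM in distal crypts and 61.3 FPKM in proximal crypts, and the bile acid receptor gene Nr1h4 at 31.1 FPKM distally and 52.3 FPKM proximally. Hnf4a, with the highest level of this list in both libraries, was higher in distal crypts, at 205 FPKM against 166 FPKM in proximal crypts. Nr1i2, which encodes the xenobiotic receptor PXR, stood at 52.4 FPKM in distal crypts and 51.1 FPKM in proximal crypts. Nr1h3, which encodes the sterol receptor LXR alpha, stood at 14.2 FPKM in distal crypts and 14.9 FPKM in proximal crypts. Other sensors of these kinds went both ways. Nr1i3, which encodes the xenobiotic receptor CAR, stood at 7.34 FPKM in distal crypts and 5.10 FPKM in proximal crypts, and Nr1h2, which encodes LXR beta, at 84.0 FPKM in distal crypts and 68.5 FPKM in proximal crypts. Ahr, the aryl hydrocarbon receptor gene, stood at 8.56 FPKM in distal crypts and 12.2 FPKM in proximal crypts, and Nfe2l2, which encodes Nrf2, at 102 FPKM in distal crypts and 157 FPKM in proximal crypts. None of these 4 was 2-fold apart or called in the authors' deposited table.

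Uptake carriers for organic ions or peptides, which bring in many substrates that ABC pumps expel, included 9 measured genes with a median log2 ratio of -0.07. The peptide carrier Slc15a1 stood at 3.41 FPKM in distal crypts and 0.231 FPKM in proximal crypts. The anion carrier Slco2b1 stood at 38.4 FPKM in distal crypts and 40.5 FPKM in proximal crypts. The 15 measured genes of cholesterol handling had a median log2 ratio of 0.19. Soat1, a cholesterol esterifying enzyme, stood at 10.4 FPKM in distal crypts and 19.4 FPKM in proximal crypts. Of 6 genes of bile acid uptake and binding 3 were measured. Fgfr4, the receptor for the ileal hormone that restrains bile acid synthesis, stood at 16.0 FPKM in distal crypts and 12.2 FPKM in proximal crypts. Baat, which conjugates bile acids, stood at 0.0915 FPKM in distal crypts and 2.87 FPKM in proximal crypts, and the authors' deposited table called Baat at a q of 0.000801. Fabp6, the ileal bile acid binding protein, stood at 1.78 FPKM in distal crypts and 6.80 FPKM in proximal crypts, and Slc10a2, the ileal uptake carrier, was under the minimum at 0.0446 FPKM in distal crypts and 0.138 FPKM in proximal crypts.

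**Figure D4:**
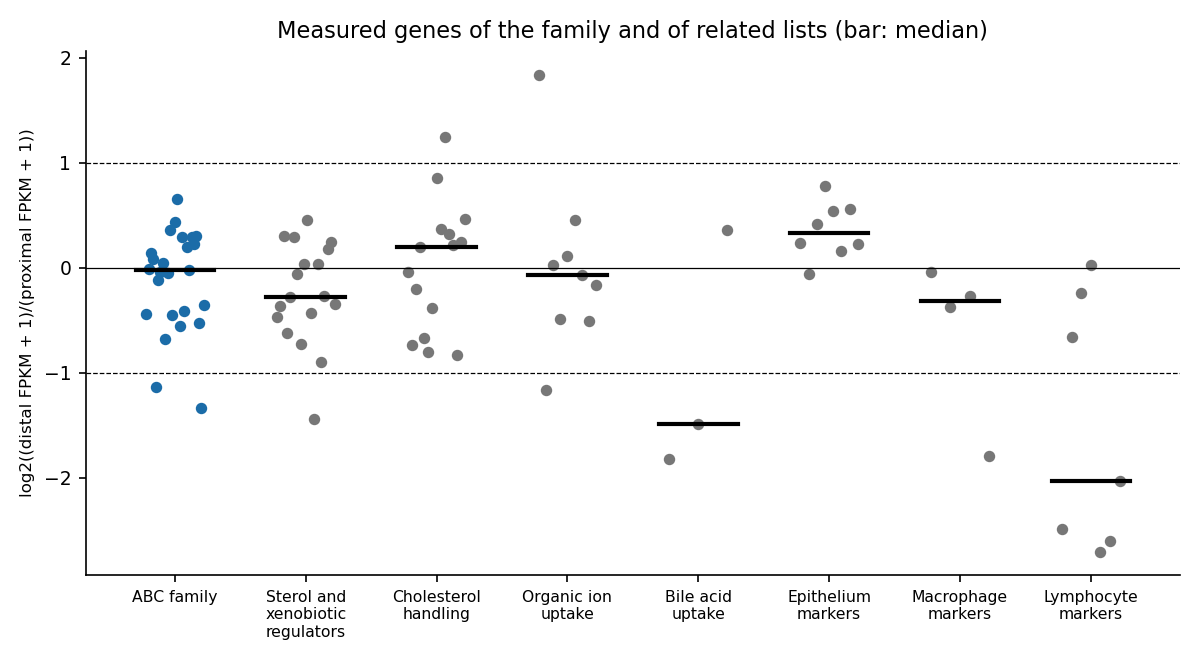
Log2 ratio of distal over proximal, from log2(FPKM + 1), of each measured gene of the ABC family (blue) and of 7 related or marker lists (grey), with bars at the median and dashed lines at 2-fold. The family lies around 0, the regulators mostly below it (median -0.28) and the lymphocyte markers furthest below (median -2.03).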

How the data were processed

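The RNA data were 2 libraries of colon crypts, 1 distal and 1 proximal, each pooled from 7 rats per the labels. Groups followed the sample titles, and table columns were assigned through the sample names printed in the file. Per the submitters' processing notes, CASAVA, TopHat2 and the build rn4 go with these samples, with no versions. The program behind the table is not stated. The authors deposited values that were read as FPKM, because they are not whole and rise in gene-dependent steps; how the libraries were scaled is not given. Per the file headers the table also holds the log2 fold change with its statistic, p-value and q-value; the p-value equals the two-sided normal tail of the statistic to within 2.76e-06, so fold change over statistic was taken as the implied standard error. The sign of the statistic is opposite to the fold change in 10031 of 10031 tested rows.

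Of 16492 rows, 23 marked as too low in data or failed and 1 repeated gene were left out. All 41 member symbols are current in the RefSeq table of GRCr8. Loci were written with 1 added to the start. The 3-read level came from olfactory receptor genes with the commonest p-value among rows at 0 in the other library (4 distal and 8 proximal genes). A ratio of 2-fold on the log2(FPKM + 1) scale was counted as apart, and counting was checked on simulated data. Members with at least 1 FPKM in 1 library were named with their values, except 2 that are not reported here. The members and lists were chosen with earlier results of these data known. Alternatives were pseudocounts of 0.1 and 5 FPKM, no minimum or 5 FPKM, 2 rescalings, no genes sharing a locus, and 1.5-fold and 4-fold limits. Python 3.11.15, pandas 2.3.3 and SciPy 1.17.1 were used.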

Additional observations from a re-analysis of the deposited data

How the results depend on the processing

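The count of members higher by 2-fold or more in distal crypts was 0 under every alternative but the 1.5-fold limit, which gave 1 (Abcc5). The count lower by 2-fold or more in distal crypts was 2 and fell to 1 with a pseudocount of 5 FPKM and without genes sharing a locus (Abcg2 in both cases), and to 0 at 4-fold. At 1.5-fold it was 3, with Abcb9 added. The median log2 ratio of the members was -0.02. It was -0.19 with equal upper quartiles, which shifted the distal library by -0.17 on the log2 scale and put the median of all measured genes at -0.06. Over the remaining alternatives the members' median ran from -0.12 to -0.0043. Of 25 measured members 3 changed sign under a rescaling (Abca7, Abcb8 and Abcb10), each within its implied standard error. No paired analysis was possible because each region had 1 library. Depth was not given, so precision rests on the model behind the deposited table.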

Other observations

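Genes that work beside the organelle members were mostly less than 2-fold apart. Of 21 measured peroxisome proteins 20 were less than 2-fold apart, with a median log2 ratio of 0.11 that was -0.05 with equal upper quartiles. The exception was Slc27a2, which activates very long chain fatty acids, at 0.474 FPKM in distal crypts and 2.24 FPKM in proximal crypts. Catalase, Cat, stood at 53.6 FPKM in distal crypts and 73.0 FPKM in proximal crypts. All 10 measured genes of heme and iron-sulfur synthesis were less than 1.5-fold apart, such as Fech at 18.6 FPKM in distal crypts and 14.3 FPKM in proximal crypts (median 0.12, or -0.04 with equal upper quartiles). The 9 genes of class I peptide loading, partners of Tap1 and Tap2, were all less than 2-fold apart, with Psmb8 the furthest, at 20.6 FPKM in distal crypts and 33.1 FPKM in proximal crypts. Of 9 fibroblast and smooth muscle markers in the table, 4 were measured, summing over the list to 9.75 FPKM in distal crypts and 8.21 FPKM in proximal crypts. The authors' deposited table called 2 of them, in opposite directions. Des, the muscle filament desmin, stood at 2.91 FPKM in distal crypts and 0.0398 FPKM in proximal crypts (q of 0.000857), and Pdgfrb, a growth factor receptor of pericytes, at 0.410 FPKM in distal crypts and 2.50 FPKM in proximal crypts (q of 0.000930). Of 4 endothelial markers 1 was measured, Pecam1, at 1.29 FPKM in distal crypts and 1.64 FPKM in proximal crypts.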
